A study of Mus musculus with 38 samples.

Results

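The RAF, MEK and ERK cascade components described here are *Braf*, *Araf*, *Map2k1*, *Map2k2*, *Mapk3*, *Ksr1* and *Hras*, followed in thyroid tissue across 6 groups of lesion and *BRAF* status. They were found by their gene symbol in the annotation of the array's probe sets, and each gene was represented by the single-symbol probe set with the highest mean over the 38 arrays. Of the 7 genes, 5 were found, among 19938 genes named in this way. *Hras* and *Mapk3* were not listed in the annotation used and were not analysed here. *Braf* was read from probe set 10544219, *Araf* from 10598956, *Ksr1* from 10388914, *Map2k1* from 10594447 and *Map2k2* from 10364971, and none of the 5 genes had another single-symbol probe set.

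The cascade carries growth signals from RAS proteins at the membrane to the nucleus. HRAS loaded with GTP recruits the RAF kinases BRAF and ARAF, which phosphorylate the kinases MEK1 and MEK2 (encoded by *Map2k1* and *Map2k2*), and these phosphorylate ERK kinases such as ERK1 (encoded by *Mapk3*). KSR1 is a scaffold that holds RAF, MEK and ERK together. In the thyroid, activating changes of this cascade are the common drivers of papillary carcinoma, and BRAF V600E is a RAF kinase that signals without RAS. Since the cascade works by phosphorylation, RNA levels are a measure of how much of each component's message is present and not of its activity.

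The study asked how the transcriptome changes early in *BRAF*V600E-driven carcinogenesis, using FVB/N transgenic mice in which the bovine thyroglobulin promoter, active in follicular cells, drives a tagged human *BRAF*V600E cDNA. RNA of a piece of every thyroid was hybridised to GeneChip Mouse Gene 1.0 ST arrays, 1 mouse per array. Values are RMA signals on the log2 scale, so that a difference of 1 is a doubling. Groups were 10 papillary thyroid carcinomas (PTC; 8 females and 2 males of 6 to 21 months), 10 borderline lesions (BL; 8 and 2; 4 to 21 months), 4 *BRAF*(+) benign hyperplastic lesions (BHL; 3 and 1; 4 to 11 months), 5 *BRAF*(+) asymptomatic thyroids (AT; 4 and 1; 7 to 11 months), 4 *BRAF*(-) BHL (3 and 1; 6 to 24 months) and 5 *BRAF*(-) AT (3 and 2; 4 to 12 months). All PTC and BL were *BRAF*(+). *BRAF*(+) means that the mutated RNA was found in the thyroid. By the study, *BRAF*(-) mice lacked that RNA and were genotyped as non-transgenic, except 1 mouse of the tg1 line in the *BRAF*(-) BHL group that carried the transgene without its RNA. The mice came from several transgenic lines that differed in the amount of mutant protein, there was no line with wild-type human *BRAF*, and the line is not given in the labels.

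Follicular cell RNA was abundant in every gland, with thyroglobulin (*Tg*) at 13.3 to 13.74 and the transcription factor *Pax8* at 11.00 to 11.88, whereas the iodide exchanger *Slc26a4* lay at 4.01 to 7.62. Other follicular genes varied more, among them the iodide transporter *Slc5a5* (7.87 to 11.74) and the oxidase *Duox2* (7.01 to 9.18). Markers of tissues that can lie next to the gland varied between mice. The mean of 9 measured adipocyte markers was 8.59 ± 0.80 in PTC, 8.53 ± 0.47 in BL, 8.56 ± 0.52 in *BRAF*(+) BHL, 8.90 ± 0.38 in *BRAF*(+) AT, 9.63 ± 0.42 in *BRAF*(-) BHL and 9.47 ± 0.19 in *BRAF*(-) AT (SD over mice), so that fat markers were lower in *BRAF*(+) groups. The 6 brown adipocyte markers ran the same way, from 6.98 ± 1.47 in *BRAF*(+) BHL up to 8.92 ± 0.77 in *BRAF*(-) BHL. The mean of 15 skeletal muscle markers lay between 5.07 and 10.3 over single mice and was high in a few mice of PTC, BL, *BRAF*(-) BHL and *BRAF*(-) AT. In such bulk tissue, fewer cells of a type and less RNA per cell cannot be told apart.

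The 2 RAF genes were the members called in at least 1 comparison below, and the bases before their transcription start are shown to make plain that the mouse *Braf* locus has a promoter of its own, apart from the thyroglobulin promoter of the transgene. The sequences are from RefSeq (GRCm38.p6), 250 bases upstream of the start, 5′ to 3′ on the strand of the gene. *Braf* is on the minus strand at chr6:39725464-39725713 and *Araf* on the plus strand at chrX:20848293-20848542. Capitals mark TGACGTCA, the cAMP response element, in *Braf* and CCGGAA, an ETS factor core, in *Araf*.
Braf: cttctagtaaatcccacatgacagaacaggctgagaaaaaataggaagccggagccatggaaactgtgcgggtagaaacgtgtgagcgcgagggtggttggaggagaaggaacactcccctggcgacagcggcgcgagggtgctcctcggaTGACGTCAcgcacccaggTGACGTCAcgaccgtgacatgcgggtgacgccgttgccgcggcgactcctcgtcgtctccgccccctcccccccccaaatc
Araf: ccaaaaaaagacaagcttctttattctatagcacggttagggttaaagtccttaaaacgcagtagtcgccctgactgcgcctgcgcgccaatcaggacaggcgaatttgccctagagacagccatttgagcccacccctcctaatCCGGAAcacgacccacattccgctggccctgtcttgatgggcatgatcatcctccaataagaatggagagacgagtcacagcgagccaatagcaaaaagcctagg
TGACGTCA, which reads the same on either strand, occurred 2 times in the *Braf* window, beginning 99 and 81 bases before the start, and was found in 1.62% of 27025 windows of this length. This motif was picked out after the sequence had been seen. The *Araf* window held CCGGAA 1 time, beginning 105 bases before the start, a motif found on either strand in 12.2% of windows. Neither window held TATAAA, which 13.0% of windows held. GGGCGG, found in 32.9% of windows on either strand, occurred 1 time before *Braf* and not before *Araf*. G and C made up 62.0% of the *Braf* window and 51.2% of the *Araf* window, and the median over all windows was 52.0%. These matches describe the letters of the windows and nothing was measured on factors that may bind them.

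*Braf*, the kinase gene whose human mutant form is the transgene, was higher in *BRAF*(+) than in *BRAF*(-) thyroids. In PTC its signals were 9.50, 9.58, 9.74, 9.80, 9.87, 9.89, 9.96, 10.00, 10.07 and 10.33. In BL they ran from 9.19 over a median of 9.60 to 10.19. *BRAF*(+) BHL gave 9.61, 9.95, 10.07 and 10.08, and *BRAF*(+) AT gave 9.24, 9.28, 9.33, 9.49 and 9.57. The *BRAF*(-) BHL gave 8.92, 8.95, 9.21 and 9.32, and the *BRAF*(-) AT 8.78, 8.99, 9.23, 9.31 and 9.33. Thus 25 of the 29 *BRAF*(+) mice lay above every one of the 9 *BRAF*(-) mice, namely all 10 PTC, 9 of 10 BL, all 4 BHL and 2 of 5 AT. The share of all probe sets that separate the mice to this extent was not counted, here or for the overlaps given below. The *BRAF*(-) mouse genotyped as transgenic, which by its group and age is the oldest mouse of the *BRAF*(-) BHL, had the 9.32. In order of their means the groups were *BRAF*(+) BHL (9.93 ± 0.22), PTC (9.87 ± 0.24), BL (9.70 ± 0.33), *BRAF*(+) AT (9.38 ± 0.14), *BRAF*(-) AT (9.13 ± 0.24) and *BRAF*(-) BHL (9.10 ± 0.20). Neighbours in this order overlapped, and limma called *Braf* in no pair of neighbours. Whether the mouse probe set also binds the human transgene's RNA is not given in the sources used here, so endogenous *Braf* and transgene RNA cannot be told apart.

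**Figure D1:**
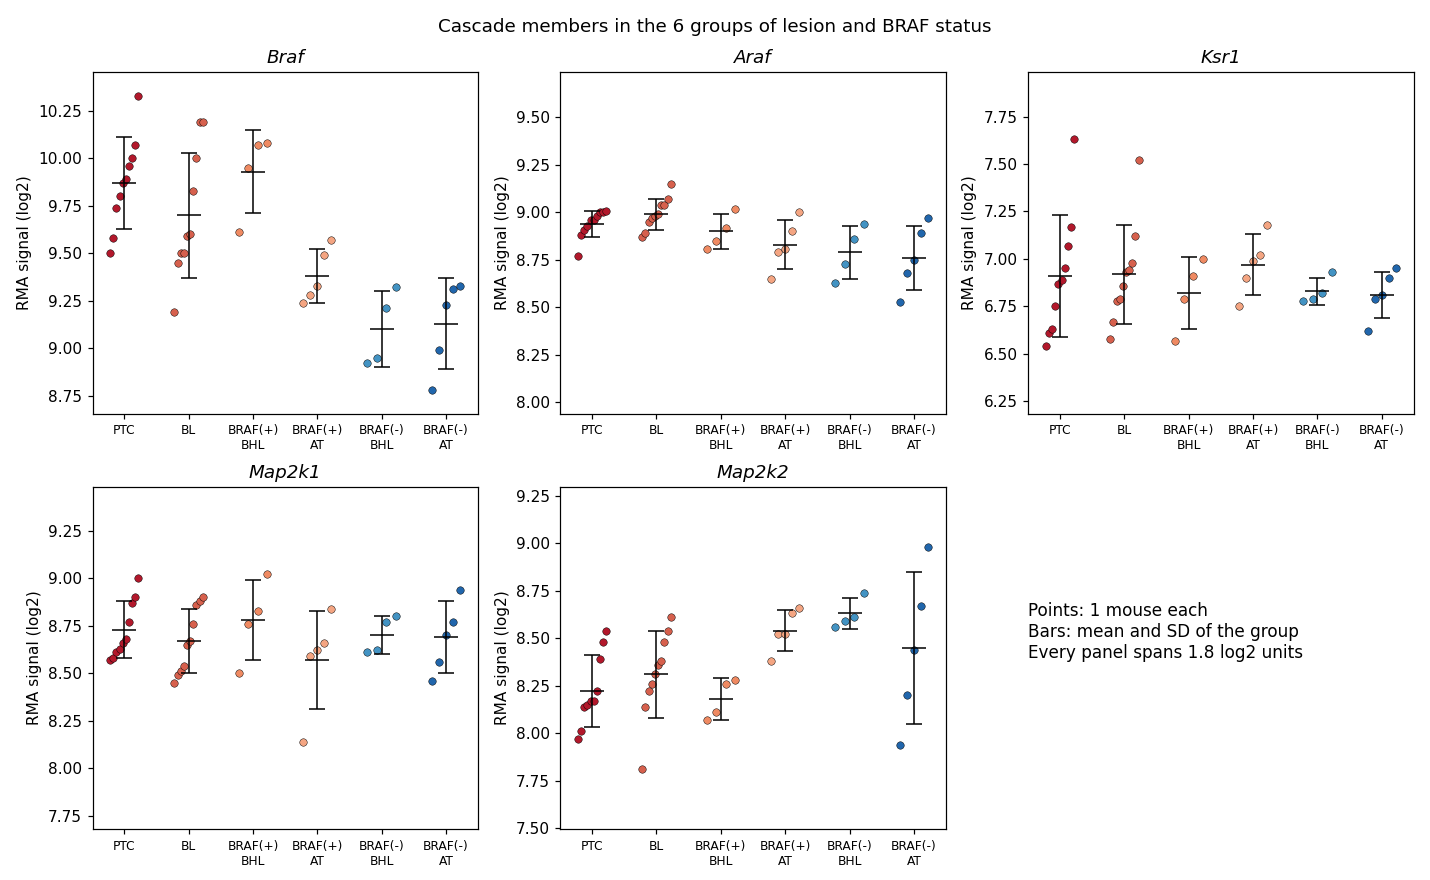
RMA signal (log2, vertical axis) of the 5 measured members in 38 mice, by lesion and *BRAF* status (horizontal axis). Each point is 1 mouse and bars give the mean and SD of the group, and every panel spans the same number of log2 units. *Braf* means fall between 9.38 and 9.93 in the 4 *BRAF*(+) groups and at 9.10 and 9.13 in the 2 *BRAF*(-) groups, while the *Ksr1* groups lie on top of each other.

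Non-malignant thyroids allow *BRAF*(+) and *BRAF*(-) mice to be compared where no carcinoma was seen. Over AT and BHL together, the *Braf* signal averaged 9.62 ± 0.33 in *BRAF*(+) and 9.12 ± 0.21 in *BRAF*(-) mice (SD, n = 9 each), and 6 of the 9 *BRAF*(+) mice were above all *BRAF*(-) ones. In limma, with lesion type and sex held in the model beside *BRAF* status, *Braf* rose by 0.50 (SE 0.12; 95% interval 0.25 to 0.75; 1.42-fold; adjusted p = 0.0222 over all probe sets). It was the 1 member of 5 that passed, where 4.1% of the 35556 probe sets and 5.75% of named genes passed. The 95% intervals of the other members held 0, with *Araf* at 0.11 (-0.03 to 0.25), *Ksr1* 0.08 (-0.08 to 0.25), *Map2k1* -0.03 (-0.25 to 0.18) and *Map2k2* -0.14 (-0.41 to 0.12). The *Braf* call was lost with age in the model (0.50, adjusted p = 0.0534) and without 1 *BRAF*(-) BHL mouse, M_930 (0.45, adjusted p = 0.0534).

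The *Braf* difference also moved with the fat markers. Over the 18 non-malignant mice, *Braf* and the adipocyte marker score had a Pearson correlation of -0.823, the brown adipocyte score -0.699 and the muscle score -0.296, in mice that share both *BRAF* status and lesion with these scores. Of the 9 adipocyte markers 4 fell in *BRAF*(+) mice and 0 rose, and of the 6 brown adipocyte markers 1 fell, where 5.75% of all 19938 named genes were called. With the 3 scores as covariates the *Braf* difference was -0.01 (SE 0.15, adjusted p = 0.997), and 15 probe sets of the whole array were then called. With 1 score at a time it was 0.16 for adipocytes (adjusted p = 0.874), 0.35 for brown adipocytes (adjusted p = 0.245) and 0.48 for muscle (adjusted p = 0.0599). With a thyroid follicular cell score in their place it was 0.53 (adjusted p = 0.0373). The adipocyte score was itself lower in *BRAF*(+) than in *BRAF*(-) mice of both lesion types.

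**Figure D2:**
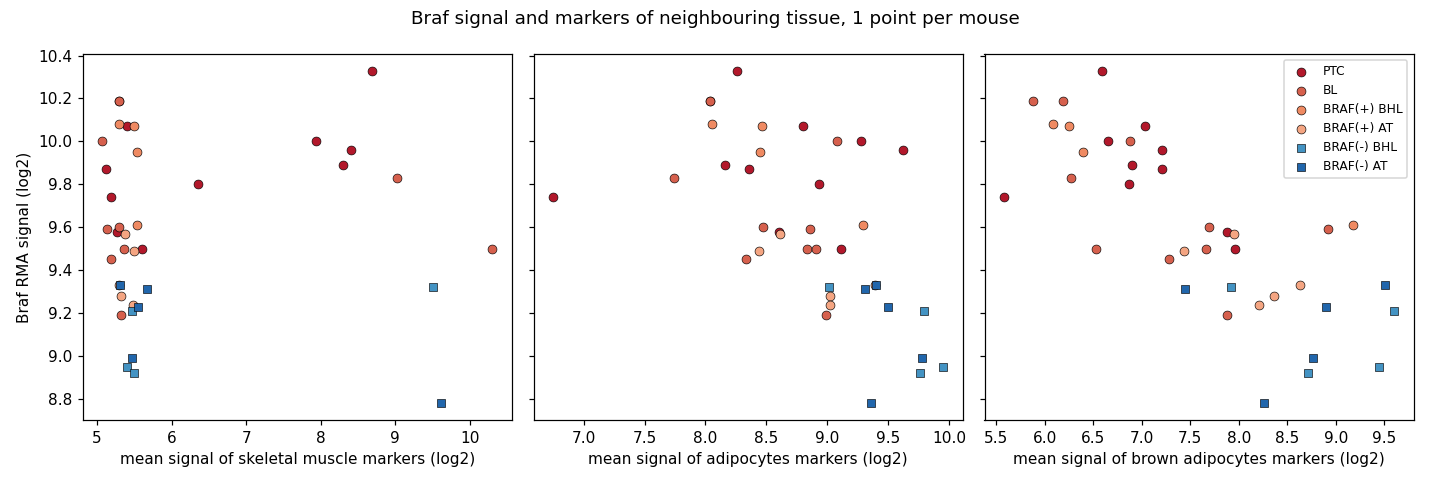
*Braf* signal (log2, vertical axis) against the mean log2 signal of skeletal muscle, adipocyte and brown adipocyte markers (horizontal axes), 1 point per mouse, with circles for *BRAF*(+) and squares for *BRAF*(-) groups. The *BRAF*(-) mice lie at 9.33 or lower in *Braf* and at 9.01 or higher in adipocyte markers, and the muscle markers are high in a minority of mice with both high and low *Braf*.

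Taking each lesion type by itself, the *BRAF* difference of *Braf* passed the threshold in BHL. Among BHL the *BRAF*(+) and *BRAF*(-) mice did not overlap, and *Braf* rose by 0.83 (SE 0.17; 1.77-fold; adjusted p = 0.00257) in the 6-group limma model with sex, where 6.62% of probe sets were called and 1 of 5 members. Of named genes 9.02% were called in BHL. In AT the difference was 0.22 (95% interval -0.10 to 0.54; adjusted p = 0.709), 3 of 5 *BRAF*(+) mice lay within the *BRAF*(-) range, and 0 of 5 members were called, where 0.256% of probe sets were. The difference between these differences was 0.61 (SE 0.23) and did not pass (adjusted p = 0.382); limma called 0 probe sets for it, with 3616 at an unadjusted p under 0.05, so that a larger effect in BHL than in AT was not shown. With the 3 tissue scores the BHL difference was 0.55 (adjusted p = 0.195). By the study, all *BRAF*(+) BHL came from 1 transgenic line, while the *BRAF*(-) BHL came from several. Line and *BRAF* status thus cannot be fully told apart in any comparison of *BRAF*(+) with *BRAF*(-) BHL.

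*Map2k2*, which encodes MEK2, was not called in any comparison of the fitted models, and its values are given by group. Its signals were 8.07, 8.11, 8.26 and 8.28 in *BRAF*(+) BHL and 8.56, 8.59, 8.61 and 8.74 in *BRAF*(-) BHL, with no overlap. How many of all probe sets separate these small groups in this way was not counted. The difference of -0.45 (SE 0.15) nevertheless missed the threshold over all probe sets (adjusted p = 0.071). In AT the *BRAF*(+) mice gave 8.38, 8.52, 8.52, 8.63 and 8.66, all inside the *BRAF*(-) values of 7.94, 8.20, 8.44, 8.67 and 8.98, and the difference was 0.12 (95% interval -0.16 to 0.40). The *BRAF*(-) AT group had the widest spread of *Map2k2* of all groups (SD 0.40), and the contrast of the BHL and AT differences was -0.57 (SE 0.20, adjusted p = 0.345). PTC ran from 7.97 over a median of 8.17 to 8.54 and BL from 7.81 over 8.33 to 8.61. Group means were thus 8.22 in PTC, 8.31 in BL, 8.18 in *BRAF*(+) BHL, 8.54 in *BRAF*(+) AT, 8.63 in *BRAF*(-) BHL and 8.45 in *BRAF*(-) AT. No comparison of *Map2k2* passed in the model as fitted.

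PTC and BL were each set against *BRAF*(-) AT, which the 2 comparisons share. *Braf* rose by 0.71 (SE 0.14; 1.64-fold; adjusted p = 0.000408) in PTC and by 0.54 (SE 0.14; 1.46-fold; adjusted p = 0.00896) in BL. *Araf*, the X-linked RAF kinase gene, rose by 0.20 (SE 0.06; 1.15-fold; adjusted p = 0.0253) in PTC and by 0.25 (SE 0.06; 1.19-fold; adjusted p = 0.00882) in BL. Hence 2 of 5 members were called in PTC, where 18.8% of probe sets and 22.8% of named genes were called. In BL 2 of 5 were called, where 11.5% of probe sets and 14% of named genes were. The remaining members differed by 0.09 (*Ksr1*), 0.03 (*Map2k1*) and -0.20 (*Map2k2*) in PTC and by 0.10, -0.03 and -0.11 in BL, and none passed. The result depended on single control mice: without the *BRAF*(-) AT mouse M_940, the lowest in both *Braf* (8.78) and *Araf* (8.53), *Araf* no longer passed in PTC (0.14, adjusted p = 0.145) and neither gene passed in BL (*Braf* 0.43, adjusted p = 0.0684; *Araf* 0.20, adjusted p = 0.0659). The mean of the skeletal muscle markers was 9.61 in M_940 and 5.31 to 5.67 in the other *BRAF*(-) AT mice. In M_764 of the *BRAF*(-) BHL it was 9.5, and that mouse had the highest *Braf* of its group (9.32). Whether muscle bears on the low values of M_940 was not tested. With the 3 tissue scores *Braf* in PTC still passed (0.52, adjusted p = 0.0214), while *Braf* in BL (0.36, adjusted p = 0.154), *Araf* in PTC (0.16, adjusted p = 0.147) and *Araf* in BL (0.21, adjusted p = 0.0895) did not.

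Markers of several cell types moved with these comparisons. Of 11 measured follicular cell markers 5 fell in PTC against *BRAF*(-) AT and 0 rose, namely *Slc5a5* (-1.31), the thyrotropin receptor *Tshr* (-0.93), *Duox2* (-0.90), the iodotyrosine deiodinase *Iyd* (-0.59) and *Pax8* (-0.31), and 1 fell in BL, where 22.8% and 14% of all named genes were called. Their mean signal lay between 8.97 and 9.69 in PTC, 8.89 and 9.80 in BL and 9.51 and 9.92 in *BRAF*(-) AT. Of 10 macrophage markers 7 rose in PTC and 3 in BL and 0 fell in either, led in PTC by the mannose receptor *Mrc1* (1.15) and the lysosomal protein gene *Cd68* (0.97). Their mean signal lay between 7.57 and 8.64 in PTC, 7.80 and 8.62 in BL and 7.09 and 8.10 in *BRAF*(-) AT. Of 9 adipocyte markers 6 fell in PTC and 5 in BL. Of 6 brown adipocyte markers 5 fell in PTC and 1 in BL. Of 4 C cell markers 2 fell in PTC, *Scg2* (-1.69) and *Syp* (-0.31), and 0 in BL. In PTC 1 of 8 fibroblast markers rose and 1 of 7 endothelium markers fell. The part of macrophages in the cascade values was not tested.

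*Araf* varied little and its change was small. PTC mice lay between 8.77 and 9.01 (median 8.96) and BL mice between 8.87 and 9.15 (median 8.98). *BRAF*(+) BHL gave 8.81, 8.85, 8.92 and 9.02, and *BRAF*(+) AT gave 8.65, 8.79, 8.81, 8.90 and 9.0. *BRAF*(-) BHL gave 8.63, 8.73, 8.86 and 8.94, and *BRAF*(-) AT 8.53, 8.68, 8.75, 8.89 and 8.97. All groups overlapped, and the 5 lowest values of *Araf* were in females, 4 of them *BRAF*(-). *Araf* averaged 8.96 ± 0.07 in the 9 males and 8.88 ± 0.14 in the 29 females, a difference of 0.11 (SE 0.04) that did not pass (adjusted p = 0.205; 3.22% of probe sets were called for sex). Without sex in the model *Araf* did not pass in PTC against *BRAF*(-) AT (adjusted p = 0.0569).

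**Figure D3:**
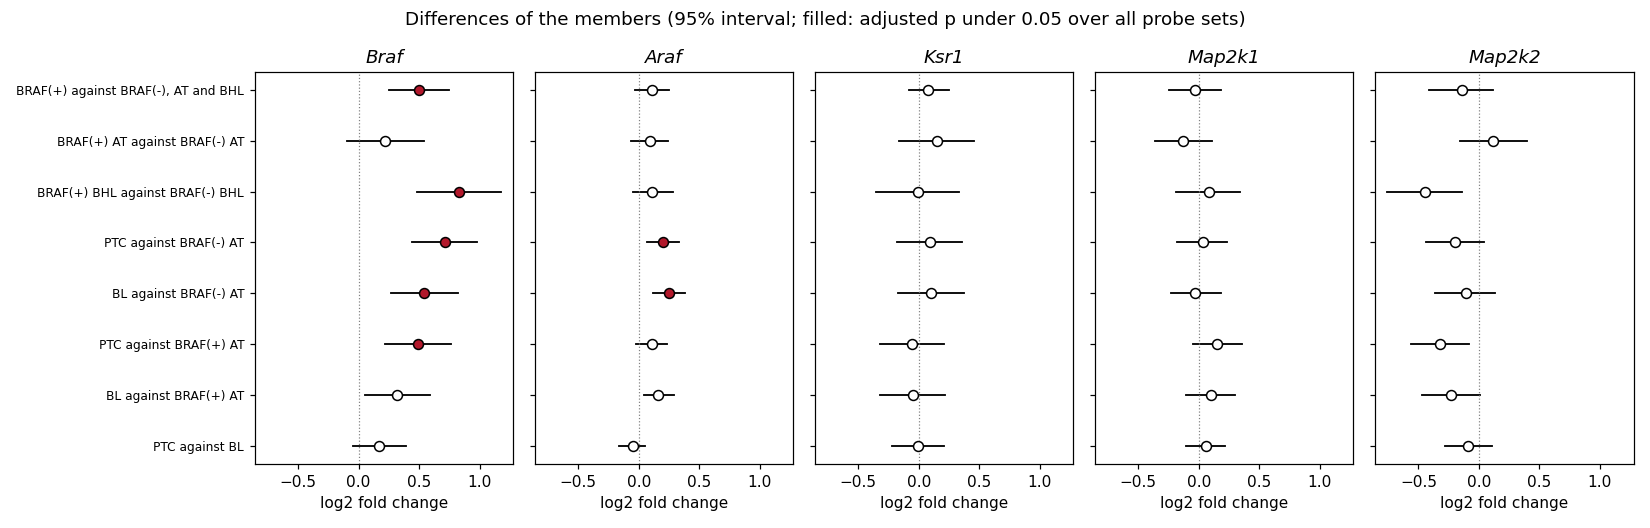
log2 fold change (horizontal axis) of each member in 8 comparisons (rows) with its 95% interval, filled where the adjusted p over all probe sets was under 0.05. *Braf* is filled in 5 rows, up to 0.83 in *BRAF*(+) against *BRAF*(-) BHL, *Araf* in the 2 rows of PTC and BL against *BRAF*(-) AT, and the intervals of *Ksr1* and *Map2k1* cross 0 in every row.

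Among *BRAF*(+) mice alone, the level of *Braf* differed with the lesion. *Braf* was 0.49 higher in PTC than in *BRAF*(+) AT (SE 0.13; 1.4-fold; adjusted p = 0.0149), where 14.9% of probe sets, 16.7% of named genes and 1 of 5 members were called. *Map2k2* in the same comparison was -0.32 (SE 0.12, adjusted p = 0.0602), and it passed when arrays were centred on their medians (-0.35, adjusted p = 0.0481) or weighted by quality (-0.31, adjusted p = 0.0359). The *Braf* call was lost in females only (0.51, adjusted p = 0.0501) and with the thyroid follicular cell score (0.47, adjusted p = 0.0567). It was also lost with the brown adipocyte score alone (0.38, adjusted p = 0.0517) and without the *BRAF*(+) AT mice M_523 and M_779 (0.51, adjusted p = 0.0748). BL against *BRAF*(+) AT gave 0.32 for *Braf* (adjusted p = 0.141; 0 of 5 members and 3.57% of probe sets called), and *BRAF*(+) BHL against *BRAF*(+) AT gave 0.55 (adjusted p = 0.0935; 0 of 5 members and 0.045% of probe sets). PTC differed from *BRAF*(+) BHL by -0.06 (95% interval -0.35 to 0.23) and from BL by 0.17 (-0.05 to 0.39), and limma called 0 probe sets in either comparison, with 2617 and 774 at an unadjusted p under 0.05. Within PTC, the 3 youngest mice, of 6 and 7 months, had the 3 lowest *Braf* signals (9.50, 9.58 and 9.74) and the oldest, of 21 months, the highest (10.33). The 2 males of the group were among these 3. The study places the youngest PTC mice in the tg2 line, and age and line cannot be told apart there. By the study, tg2 had the highest level of mutant protein, and the other PTC mice came from a line with a lower level. That protein level is known here by line only, while the array gives RNA by mouse. How the protein relates to the *Braf* signals was not tested. The order by age was noticed after the values were seen, and the 21-month BL mouse, at 9.60, was at the median of its group.

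*Ksr1* and *Map2k1* did not separate the groups. The scaffold gene *Ksr1* lay lower on the array than the other members, at 6.54 to 7.63 over all mice, and its group means ran from 6.81 ± 0.12 in *BRAF*(-) AT to 6.97 ± 0.16 in *BRAF*(+) AT. Its highest signals were single mice, a PTC at 7.63 and a BL at 7.52. *Map2k1*, which encodes MEK1, had group means from 8.57 ± 0.26 in *BRAF*(+) AT to 8.78 ± 0.21 in *BRAF*(+) BHL, and its lowest value, 8.14, was 1 *BRAF*(+) AT mouse of 7 months. Signals of different probe sets are not on a common scale, so these levels do not rank the genes against each other. Between the 6 groups lay 63.4% of the variance of *Braf*, 41.4% of *Araf*, 35.0% of *Map2k2*, 10.3% of *Map2k1* and 5.47% of *Ksr1*. An F test over the 6 groups in the limma model passed for *Braf* (adjusted p = 9.6e-05) and *Araf* (0.0197), not for *Map2k2* (0.0596), *Map2k1* (0.738) or *Ksr1* (0.926), where 18.1% of probe sets and 22% of named genes passed. Between the MEK genes, the MEK1 gene gave 0.08 (95% interval -0.19 to 0.34) and the MEK2 gene -0.45 (-0.76 to -0.14) between *BRAF*(+) and *BRAF*(-) BHL, and no test was made of one gene against the other.

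Over the 38 mice, the gene whose signal ran most like *Braf* was *Nf1* (Pearson r = 0.949), followed by *Shroom4* (0.935) and *Flvcr1* (0.934), as a description over mice that share groups and tissue composition. *Nf1* encodes neurofibromin, a GTPase-activating protein that switches RAS off. *Nf1* averaged 10.05 ± 0.22 in PTC, 9.85 ± 0.34 in BL, 10.00 ± 0.25 in *BRAF*(+) BHL, 9.41 ± 0.11 in *BRAF*(+) AT, 9.23 ± 0.26 in *BRAF*(-) BHL and 9.29 ± 0.25 in *BRAF*(-) AT, which is the order of the *Braf* means but for PTC and *BRAF*(+) BHL, whose places were exchanged. *Nf1* rose in PTC against *BRAF*(-) AT (0.73, SE 0.14, adjusted p = 0.000411) and was 0.40 (adjusted p = 0.0969) in non-malignant *BRAF*(+) against *BRAF*(-) thyroids. For *Araf* the nearest genes were *Snapc4* (r = 0.819), *Phf12* (0.800) and *Plcg1* (0.789), which encodes phospholipase C gamma.

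Around the members, 91 other genes of RAS, its regulators, the scaffolds and the parallel MAP kinase modules were listed, and 80 were measured. In non-malignant *BRAF*(+) against *BRAF*(-) thyroids 4 rose, 0 fell and 76 were not called, where 5.75% of all 19938 named genes were called. The median log2 fold change was 0.0343 against 0.0172 over all genes. The 4 were *Rasgrf1*, a RAS exchange factor (0.50, SE 0.11, adjusted p = 0.0195), *Rasa2*, a RAS GTPase-activating protein (0.64, SE 0.15, adjusted p = 0.0244), and the p38 kinase genes *Mapk11* (0.46, SE 0.12, adjusted p = 0.0309) and *Mapk13* (0.40, SE 0.10, adjusted p = 0.0336). *Rasa1* and *Mapk10* did not pass in this fit over all probe sets. The study filtered its probe sets first and lists both genes in its signature from non-malignant thyroids. Leaving out 1 mouse at a time gave adjusted p of up to 0.0499 for *Rasgrf1*, 0.0556 for *Rasa2*, 0.0744 for *Mapk11* and 0.0832 for *Mapk13*, and limma called them in 18, 15, 9 and 6 of the 18 fits. With the 3 tissue scores 0 of the 80 genes were called higher. In PTC against *BRAF*(-) AT 22 rose and 4 fell of 80, where 22.8% of all named genes were called, and the median was 0.0766 against -0.0418 over all genes.

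In PTC against *BRAF*(-) AT the lists were counted by their place in the cascade, and their shares stand beside the 22.8% of all named genes. Of 9 measured RAS GTPase-activating protein genes, whose products switch RAS off, 5 rose and 0 fell, among them *Rasa2* (1.11, SE 0.21, adjusted p = 0.000341), *Rasa1* (0.96, SE 0.18, adjusted p = 0.00033) and *Rasa3* (0.61, SE 0.11, adjusted p = 0.000333). *Rasa2* averaged 8.69 ± 0.44 in PTC and 7.50 ± 0.21 in *BRAF*(-) AT. Of 12 RAS activators and adaptors 4 rose, including *Rasgrf1* (0.92, SE 0.15), the adaptor *Shc1* (0.39, SE 0.10) and the lymphocyte exchange factor *Rasgrp1* (1.26, SE 0.39). T cell markers averaged 5.70 in PTC and 5.49 in *BRAF*(-) AT and 0 of 6 were called, and the part of T cells in the *Rasgrp1* change was not tested. Of 4 RAS genes *Nras* rose (0.29, SE 0.10) and *Mras* fell by 0.38 (SE 0.11). In the 5 fits that each left out 1 *BRAF*(-) AT mouse, *Nras* was called in 3 (not without M_524 or M_940, adjusted p up to 0.142) and *Mras* in 4 (not without M_771, adjusted p = 0.0528), and *Rasgrp1* also in 4 (not without M_940, adjusted p = 0.0661). Beside the RAF kinases, the MAP3 kinases *Map3k1* (0.59, SE 0.09) and *Map3k8* (0.43, SE 0.14), which can also feed into MEK, rose, and *Mos* fell by 0.22 (SE 0.08) at a signal of 4.28 ± 0.17 in PTC and 4.50 ± 0.11 in *BRAF*(-) AT. In the same 5 fits *Map3k1* was called in 5, *Map3k8* in 1 (not without M_524, M_771, M_940 or M_957, adjusted p up to 0.0857) and *Mos* in 0 (adjusted p from 0.0572 to 0.13). Of 26 scaffolds and RAF regulators 4 rose and 1 fell, led by the scaffold *Iqgap1* (0.56, SE 0.10) and the small GTPase *Rap1b* (0.49, SE 0.11). Of 5 kinases directly downstream of ERK 2 rose, of 16 genes of the JNK and p38 modules 4 rose and 1 fell, and of 4 genes of the ERK5 module 0 were called.

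**Figure D4:**
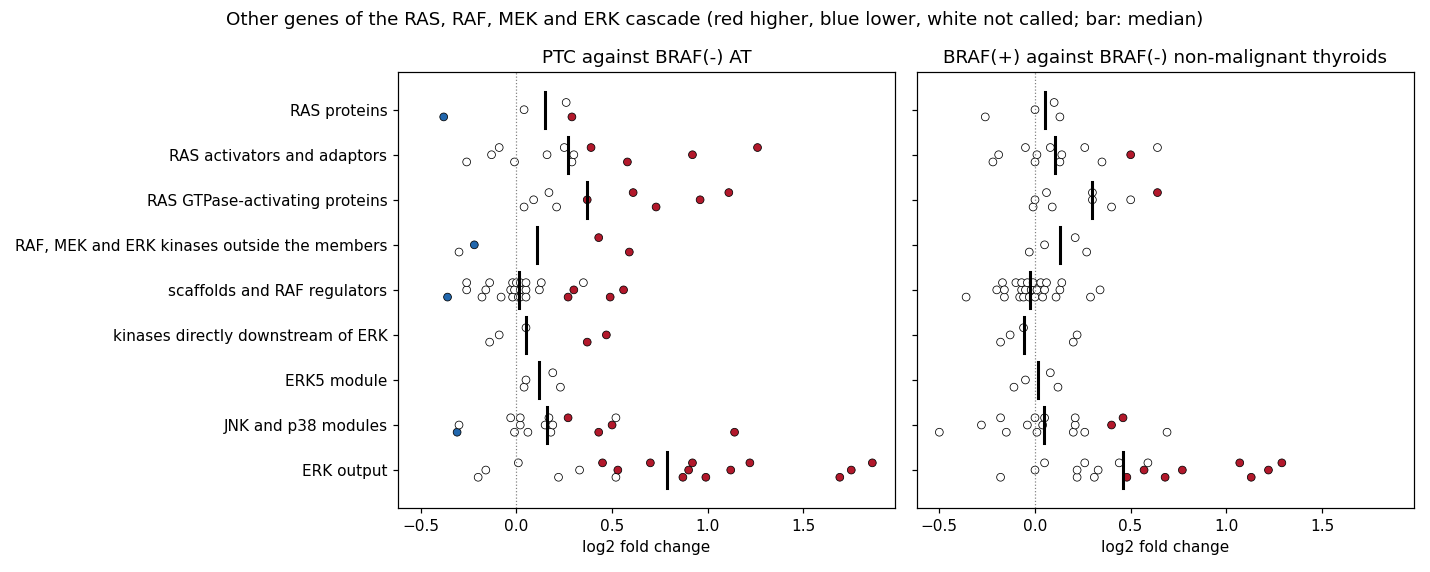
log2 fold change (horizontal axis) of each measured gene in 9 lists around the cascade (rows) in PTC against *BRAF*(-) AT and in *BRAF*(+) against *BRAF*(-) non-malignant thyroids, red for genes called higher, blue for lower and white for not called, with a bar at the median of the list. The median of ERK output is 0.782 in the first panel and 0.462 in the second, and the median of the scaffolds and RAF regulators is 0.0126 and -0.024.

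ERK output genes, which ERK activity is known to induce, were listed apart. The list was chosen with earlier results of these data known, so its counts are a description only. Of 18 measured ERK output genes 8 rose and 0 fell in non-malignant *BRAF*(+) thyroids, with a median of 0.462, and 12 rose and 0 fell in PTC against *BRAF*(-) AT, with a median of 0.782, where 5.75% and 22.8% of all named genes were called. By lesion, 9 of 18 rose in *BRAF*(+) against *BRAF*(-) BHL (median 0.602, where 9.02% of named genes were called), and limma called 0 of 18 in AT (median 0.291, where 0.301% were called). At an unadjusted p under 0.05 there were 8 of 18 in AT. For the difference between the BHL and AT differences limma called 0 of 18, with 5 at an unadjusted p under 0.05. They included the immediate early factor *Egr1* (1.22, SE 0.17, adjusted p = 0.000757, non-malignant), the ETS factor *Etv1* (1.13, SE 0.19, adjusted p = 0.0026) and the ERK phosphatase *Dusp5* (1.07, SE 0.19, adjusted p = 0.00447). In PTC the cell cycle gene *Ccnd1* (1.86, SE 0.26), *Etv1* (1.75, SE 0.21) and the ERK phosphatase *Dusp6* (0.99, SE 0.16) rose. *Etv1* averaged 9.43 ± 0.22 in PTC, 9.15 ± 0.50 in BL, 9.45 ± 0.30 in *BRAF*(+) BHL, 8.43 ± 0.67 in *BRAF*(+) AT, 7.79 ± 0.35 in *BRAF*(-) BHL and 7.63 ± 0.15 in *BRAF*(-) AT. The non-malignant count was 0 of 18 with the 3 tissue scores and 0 of 18 with the adipocyte score alone, and the PTC count was 11 in either fit.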

How the data were processed

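RNA of 38 mouse thyroids was hybridised to arrays of the GeneChip Mouse Gene 1.0 ST type, 1 per mouse, and groups, sex and age came from the labels. The authors used RMA, of a version not stated, and deposited log2 signals of 35556 probe sets. Array medians ran from 6.00 to 6.15 and correlations between arrays from 0.944 to 0.991. The number of mice limits the precision. Of the probe sets, 21789 carried 1 gene symbol, 1621 several and 12146 were unlisted.

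Fits used limma 3.58.1 in R 4.3.3 (lmFit and eBayes) on all probe sets, with Benjamini-Hochberg adjustment and a threshold of 0.05. Non-malignant thyroids were fitted with *BRAF* status, lesion type and sex, and the 6 groups with sex over 38 mice. The fits were tested on simulated data. Figures were drawn with matplotlib. The study's flat filter (1.5-fold from the median in 20% of mice) was re-applied here to the 38 arrays. It keeps 4388 probe sets and 0 members, so it served as an alternative only. The study itself lists *BRAF* among the signature genes of its filtered non-malignant comparison. Why the outcomes differ was not examined. The other alternatives were array centring, array weights, age, no sex term, females only, marker scores and leaving out each mouse; single marker scores and leaving out M_523 with M_779 were added after seeing the data. Named genes were the members, up to 3 called genes of each list by adjusted p, and the 3 genes most like *Braf* and *Araf*. The members and lists were chosen with earlier results of these data known.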

Additional observations from a re-analysis of the deposited data

Results flagged for a closer look

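Of 30 sets of values (5 members in 6 groups) tested for a sample apart from the others, 1 was marked. *Araf* in the PTC mouse M_364 was 8.77, and the nearest PTC mouse was at 8.88, a gap of 0.491 of the group's range. Chance marks about 1 group in 20.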

How the results depend on the processing

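The direction of *Braf* was kept in every fit but those named here. The study's flat filter, as re-applied here, removed all members, so that 0 were called in any comparison. Among non-malignant thyroids the count of 1 member called became 0 with age, with the 3 tissue scores and with the muscle, adipocyte or brown adipocyte score alone. In BHL the 1 became 0 with the 3 scores, the adipocyte score and the brown adipocyte score. In PTC against *BRAF*(-) AT the 2 became 1 without a sex term and with the 3 scores, the adipocyte score or the brown adipocyte score, and in BL against *BRAF*(-) AT the 2 became 0 with any of those scores. In PTC against *BRAF*(+) AT the 1 became 2 with centred arrays, array weights or the muscle score, and 0 in females, with the thyroid or brown adipocyte score, and without M_523 and M_779 (*Braf* 0.51, adjusted p = 0.0748). In the F test the 2 became 1 without sex or with the adipocyte score and 0 with the 3 scores or the brown adipocyte score. The cause was not tested. Of the genes around the cascade, 4 were higher among non-malignant thyroids, against 0 with the 3 scores, the adipocyte or the thyroid score, 1 with age, in females or with the brown adipocyte score, 2 with the muscle score, the flat filter or without the 24-month *BRAF*(-) BHL mouse, 8 with array weights or without M_523 and M_779, and 9 as a contrast of the 6 groups. The ERK output count of 8 became 0 with the 3 scores or the adipocyte score and 2 with the brown adipocyte score. In PTC against *BRAF*(-) AT the 22 genes higher around the cascade became 5 with the flat filter, 10 in females, 14 with the 3 scores and 12 with the thyroid score.

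Some values changed sign. Among non-malignant thyroids with the 3 scores, *Braf*, called at 0.50 without them, was -0.01, *Nf1* was -0.14 (0.40 without them), *Map2k1* 0.07 (-0.03) and *Map2k2* 0.24 (-0.14); with the adipocyte score *Map2k1* was 0.03 and *Map2k2* 0.05, with the brown adipocyte score *Map2k1* was 0.00, with array weights 0.03, and without M_523 and M_779 0.02. *Map2k1* in PTC against *BRAF*(-) AT was -0.01 with centred arrays, -0.06 in females and -0.11 with the thyroid score, and in BL against *BRAF*(-) AT it was 0.01 with array weights, 0.05 with the 3 scores and 0.06 with the adipocyte score. *Braf* in *BRAF*(-) BHL against *BRAF*(-) AT was 0.00 with the 3 scores.

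Leaving out 1 mouse at a time gave 0 to 1 members called among non-malignant thyroids (0 without M_930), 1 to 2 in PTC against *BRAF*(-) AT (1 without M_940 or M_957), 0 to 2 in BL against *BRAF*(-) AT (0 without M_940), 2 to 3 in the F test, and 1 in every fit of BHL and of PTC against *BRAF*(+) AT. Over these fits *Map2k1* ran from -0.07 to 0.03 among non-malignant thyroids, from -0.02 to 0.09 in PTC and from -0.07 to 0.03 in BL against *BRAF*(-) AT. *Map2k2* ran from -0.24 to 0.04 in BL against *BRAF*(-) AT and from 0.00 to 0.28 between the AT groups, and *Braf* from -0.17 to 0.02 in *BRAF*(-) BHL against *BRAF*(-) AT. No paired analysis was possible because mouse numbers are not shared between the groups.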
